A study of Mus musculus with 6 samples.

Results

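The enzymes *Cyp7a1*, *Cyp8b1*, *Cyp27a1* and *Cyp7b1*, the conjugating pair *Slc27a5* and *Baat*, the bile acid carriers *Abcb11* and *Slc10a1*, and the nuclear receptors *Nr1h4* (FXR) and *Nr0b2* (SHP) are 10 genes of bile acid synthesis, transport and feedback. They were taken by gene symbol from the 16123 genes of a liver RNAseq table, in which each had 1 row. All 10 were among the 11367 expressed genes, those whose 2 genotype values averaged 10 or more. The livers came from WT C57BL/6 male mice and from homozygous *Txndc5*-deficient (KO) males of the strain C57BL/6JRj-Txndc5<em2Mdnp>/Ciba, while the labels spell the WT strain C57BL/6Rj. The KO lacks exon 3, which was removed with CRISPR guides placed in introns 2 and 3, and the line goes back to a single random male founder. Both genotypes were born of heterozygous crosses, were about 2 months old at the start, received a purified chow diet for 4 weeks and were fasted for 16 h. Each genotype was sequenced as 3 libraries of polyA RNA, and each library was made from the mixed RNA of 3 mice.

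Hepatocytes turn cholesterol into bile acids. In the classic route CYP7A1 starts with the sterol ring, and in the alternative route CYP27A1 and CYP7B1 start with the side chain and the oxysterol ring. CYP8B1 adds the hydroxyl group that makes cholic acid, SLC27A5 and BAAT couple the product to taurine or glycine, ABCB11 (BSEP) pumps it into bile, and SLC10A1 (NTCP) takes it up again from portal blood. Bile acids bind FXR, which is known to switch on *Nr0b2* and *Abcb11*, and the SHP protein that *Nr0b2* encodes represses *Cyp7a1* and *Cyp8b1*.

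The promoters of an FXR target and of the repressor gene are shown because both genes belong to this feedback. RefSeq promoters on GRCm38.p6 were given for 6 of the 10 genes. The 250 bases before the start of *Abcb11* lie at chr2:69342617-69342866 on the minus strand, and those of *Nr0b2* at chr4:133553126-133553375 on the plus strand. Capitals mark matches to AGGNCANTGACCT, an inverted repeat of the nuclear receptor half-site AGGTCA with 1 base between the copies and 1 base left free, and to TCAAGG, the core bound by NR5A2 (LRH-1).
Abcb11: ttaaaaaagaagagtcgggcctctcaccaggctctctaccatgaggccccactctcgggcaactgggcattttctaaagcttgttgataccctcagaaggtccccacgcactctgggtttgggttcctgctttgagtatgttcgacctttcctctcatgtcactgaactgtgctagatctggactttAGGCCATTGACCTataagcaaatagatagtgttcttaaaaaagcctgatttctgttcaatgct
Nr0b2: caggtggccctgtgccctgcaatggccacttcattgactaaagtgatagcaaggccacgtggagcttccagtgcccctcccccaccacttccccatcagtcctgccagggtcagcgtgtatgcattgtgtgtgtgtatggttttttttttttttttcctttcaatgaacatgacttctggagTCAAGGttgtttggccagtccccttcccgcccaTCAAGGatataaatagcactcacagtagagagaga
Both motifs were searched on both strands of 32851 windows of the same length. The inverted repeat with its free base, a form chosen after the *Abcb11* sequence was seen, was present in 11 windows (0.0335%), while the strict form AGGTCANTGACCT was present in 2 (0.00609%) and in no window of the 6 genes. In *Abcb11* it ended 51 bases before the start. TCAAGG was present in 4093 windows (12.5%), and in *Nr0b2* it occurred 2 times, ending 63 and 30 bases before the start. AGGTCA alone was present in 4607 windows (14%), among them those of *Abcb11*, *Nr1h4* and *Slc10a1*. A match describes letters and was not tested as a binding site.

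For each gene the authors deposited 1 value per genotype, on the scale of normalized reads, that combines its 3 libraries. These values are not the mean reads of a genotype, because their ratio was shrunken toward 0 by DESeq2. Every ratio, percent of WT and count past 2-fold of these values is on that shrunken scale. In 444 weakly expressed genes whose reads could be recovered, the deposited log2 ratio was a median of 0.772 of that of the reads, and the share was not measured for stronger genes. The comparison of KO with WT asked how the loss of *Txndc5* went with hepatic gene expression, and a single value per genotype shows no spread between pools. The authors' own test statistics were not used, so no test is given for these 10 genes. The log2 ratios below are log2((KO value + 1)/(WT value + 1)). The deleted gene *Txndc5* had a deposited value of 2697 in WT against 90.8 in KO, or 3.40% of WT. The libraries held between 44040160 and 46050030 clean reads, of which 91.63% to 93.66% were mapped. Ribosomal RNA was 0.67% and 0.69% in WT pools 1 and 5 and 0.26% to 0.40% in the other 4 libraries.

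The 6 enzymes of synthesis and conjugation among the 10 genes all had a lower value in KO than in WT, while the 4 genes of transport and of the receptors lay near or above WT. Of the 10 genes, 1 was lower past 2-fold, *Cyp7a1*, against 0.66% of the expressed genes, and 0 were higher past 2-fold, against 0.158%. The same single gene was lower past 1.5-fold, against 5.34% of the expressed genes. The KO value was below the WT value in 7 of the 10, against 57.7% of the expressed genes. The median log2 ratio was −0.19 over the 10 genes, −0.28 over the 6 of synthesis and conjugation and 0.01 over the other 4, beside −0.05 over all expressed genes. In liver pieces, fewer cells of a type and less RNA per cell cannot be told apart.

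**Figure D1:**
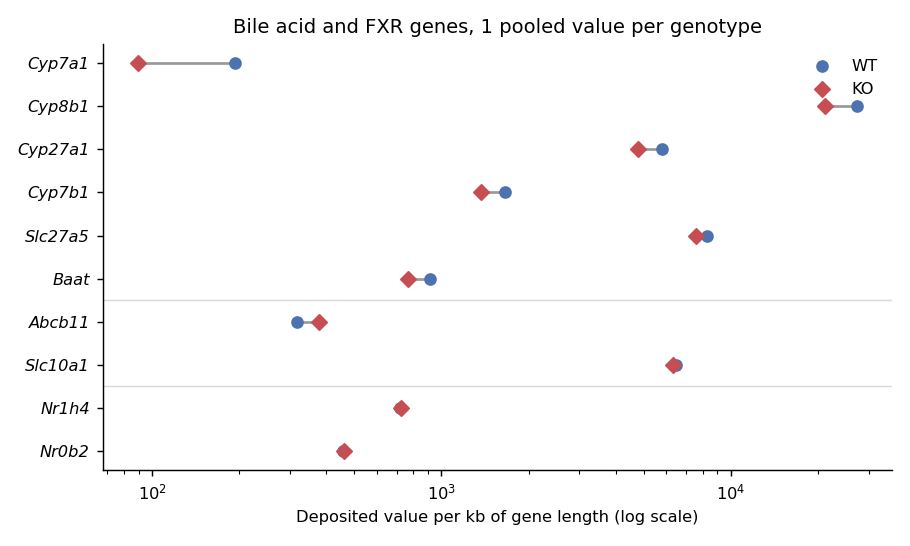
Deposited value per kb of gene length on a log axis for the 10 genes, with a circle for the pooled WT value and a diamond for the pooled KO value; there are no error bars because there is 1 value per genotype. *Cyp7a1* has the widest gap, from 193 to 89.6, and the 6 genes above the upper line all have the diamond to the left of the circle.

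*Cyp7a1*, the rate-limiting enzyme of the classic route, is encoded on chromosome 4 from 6265612 to 6275632 (minus strand, GeneID 13122). Its deposited value was 804 in WT and 374 in KO, so that KO held 46.5% of WT (log2 ratio −1.10). Only 0.369% of the expressed genes had a lower log2 ratio, which placed it at rank 43 from the lowest. Among the 4193 genes that averaged 300 or more, 0.143% were lower past 2-fold.

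The other enzymes of the nucleus differed less, and all in the same direction. *Cyp8b1* (chromosome 9, 121914356 to 121916305, minus strand, GeneID 13124) had a value of 53126 in WT against 41211 in KO, or 77.6% of WT (log2 ratio −0.37). *Cyp27a1* (chromosome 1, 74713148 to 74737897, plus strand, GeneID 104086) had 11219 in WT and 9252 in KO, or 82.5% of WT (log2 ratio −0.28). *Cyp7b1* (chromosome 3, 18071944 to 18243890, minus strand, GeneID 13123) had 3604 in WT and 2968 in KO, also with a log2 ratio of −0.28. These 3 log2 ratios lay inside the range from the 5th to the 95th percentile of the expressed genes, −0.60 to 0.39, and that of *Cyp7a1* lay outside it. Among the genes that averaged 300 or more the range was narrower, −0.372 to 0.357, and *Cyp8b1* (−0.366) lay just inside its lower end.

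The other enzymes stood higher relative to *Cyp7a1* in KO than in WT, which restates the lower value of *Cyp7a1* itself. Per kb of gene length, the level of *Cyp8b1* was 141 times that of *Cyp7a1* in WT and 236 times in KO. The level of *Cyp27a1* was 30.1 times that of *Cyp7a1* per kb in WT and 53.4 times in KO, and the level of *Cyp7b1* was 8.63 and 15.3 times that of *Cyp7a1*. Without *Cyp7a1* the ratios were closer, with *Cyp27a1* at 3.48 times the level of *Cyp7b1* per kb in WT and 3.49 times in KO, and *Cyp8b1* at 4.70 and 4.42 times that of *Cyp27a1*. The starting enzyme of the classic route had the lowest level per kb of the 10 genes in both genotypes, and *Cyp8b1* the highest.

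Conjugation showed small differences. *Slc27a5*, the ligase that activates bile acids with coenzyme A (chromosome 7, 12988346 to 12998192, minus strand, GeneID 26459), had a value of 19416 in WT against 17758 in KO, or 91.5% of WT (log2 ratio −0.13). *Baat*, the transferase of the second step (chromosome 4, 49489416 to 49507915, minus strand, GeneID 12012), had 1784 in WT and 1507 in KO, or 84.5% of WT (log2 ratio −0.24). Per kb, the level of *Baat* was 0.109 of that of *Slc27a5* in WT and 0.101 in KO.

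The carriers did not share a direction. *Abcb11*, the export pump of the canalicular membrane (chromosome 2, 69238282 to 69342616, minus strand, GeneID 27413), had the highest log2 ratio of the 10 genes, with a value of 1552 in WT against 1847 in KO, or 119% of WT (log2 ratio 0.25). Of the expressed genes, 87.7% had a lower log2 ratio than *Abcb11*. Its exons overlap those of *Gm13613* and *Gm13614*, and reads of overlapping genes cannot be told apart unless the counting used strand, which is not stated. *Slc10a1*, the uptake carrier of the opposite membrane (chromosome 12, 80953185 to 80968705, minus strand, GeneID 20493), had 10819 in WT and 10534 in KO (log2 ratio −0.04, or 0.01 after centring on the median of all expressed genes). The level of the uptake carrier per kb was 20.4 times that of the export pump in WT and 16.7 times in KO.

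The sensor and its repressor target had almost the same value in both genotypes. *Nr1h4*, which encodes FXR (chromosome 10, 89454234 to 89533645, minus strand, GeneID 20186), had a value of 1468 in WT against 1471 in KO (log2 ratio 0.00). *Nr0b2*, which encodes SHP (chromosome 4, 133553376 to 133556686, plus strand, GeneID 23957), had 584 in WT and 588 in KO (log2 ratio 0.01). The level of *Nr0b2* per kb was 0.632 of that of *Nr1h4* in WT and 0.635 in KO. Of the genes that FXR is known to induce, *Nr0b2* and *Abcb11* stood at 100.7% and 119% of WT, and *Slc27a5* and *Baat* at 91.5% and 84.5%. *Cyp7a1* and *Cyp8b1*, the genes that SHP is known to repress, stood at 46.5% and 77.6%.

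Per kb of gene length the order of the levels was the same in both genotypes, namely *Cyp8b1*, *Slc27a5*, *Slc10a1*, *Cyp27a1*, *Cyp7b1*, *Baat*, *Nr1h4*, *Nr0b2*, *Abcb11* and *Cyp7a1*. In WT the levels ran from a value of 27244 per kb in *Cyp8b1* to 193 in *Cyp7a1*, and in KO from 21134 to 89.6. Neighbours in this order were not compared, since no spread is known.

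The other genes of the pathway were read from 5 lists. Of 50 such genes 48 had a row, all but *Fabp6* and *Fgf15*, and 42 were expressed. Of these 42, 1 was lower past 2-fold and 0 were higher, beside the 0.66% and 0.158% of all expressed genes. The KO value was below WT in 22 and above it in 20, and their median log2 ratio was −0.02.

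In the synthesis list the values in KO were below those in WT, which held for 57.7% of all expressed genes. All 9 of its expressed genes, the 4 enzymes above included, were lower in KO than in WT (median log2 ratio −0.28). After centring on the median of all expressed genes, *Cyp39a1* turned to 0.03. Relative to the 500 genes nearest in GC content, *Cyp39a1* and *Akr1d1* turned to 0.17 and 0.10. Those 500 genes were drawn from all expressed genes, weak ones included. *Akr1d1* (GC 40.9%, mean value 410) lies in the GC class of 40% to 44%. The median log2 ratio of that class was −0.28, but −0.14 among its genes averaging 300 or more. The other 5 genes of that list were *Hsd3b7* (−0.20 on the log2 scale) and *Akr1d1* (−0.28), which reshape the rings, the oxysterol enzymes *Cyp39a1* (−0.02) and *Cyp46a1* (−0.11), and *Cyp2c70*, which makes the muricholic acids of mice. *Cyp2c70* had a value of 619 in WT against 317 in KO (log2 ratio −0.96), just inside the 2-fold limit that *Cyp7a1* passed. In side chain shortening and conjugation, *Slc27a5* and *Baat* included, the KO value was below WT in 5 genes and above it in 3 (median log2 ratio −0.07). Without those, 3 lay below and 3 above (median 0.02), so the direction of *Slc27a5* and *Baat* was not that of the whole list. The lowest log2 ratio of all the lists was that of *Sult2a8*, a bile acid sulfotransferase, with 3098 in WT and 1425 in KO (log2 ratio −1.12). Reads of *Cyp2c70* and *Sult2a8* may be shared with close relatives in their families, so their values are uncertain.

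Transport and regulation spread to both sides of 0. Of the 14 expressed transport genes, *Slc10a1* and *Abcb11* included, the KO value was below WT in 6 and above it in 8 (median log2 ratio 0.11). *Slco1b2*, a basolateral uptake carrier of unconjugated bile acids, had the lowest ratio among them, with a value of 2920 in WT against 1708 in KO (log2 ratio −0.77), and its family too has close relatives. *Abcg8*, a subunit of the canalicular cholesterol pump, had the highest, with 1689 in WT and 2274 in KO (log2 ratio 0.43). Of the 18 expressed receptors and regulators, *Nr1h4* and *Nr0b2* included, 6 were below WT and 12 above (median 0.07). The highest were *Ppara*, the fatty acid receptor of the fasting response, with 3501 and 4872 (log2 ratio 0.48), and *Mafg*, a repressor of bile acid genes, with 327 and 440 (log2 ratio 0.43). The lowest were *Nr1d1*, with 3497 in WT and 2455 in KO (log2 ratio −0.51), and *Ppargc1a*, with 103 and 76.2 (log2 ratio −0.43). The 3 expressed genes of the short list of further FXR targets, *Sdc1*, *Pltp* and *Apoc2*, had log2 ratios of −0.07, −0.27 and −0.23. All 3 were below WT, as were 57.7% of all expressed genes. This list does not hold every FXR target. Among the 8 transport genes above WT were *Abcc2* (log2 ratio 0.28), *Abcb4* (0.10) and *Abcg5* (0.36). Past 1.5-fold, 3 of the 42 genes were lower, *Sult2a8*, *Cyp2c70* and *Slco1b2*, beside 5.34% of all expressed genes, and 0 were higher, beside 1.43%.

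**Figure D2:**
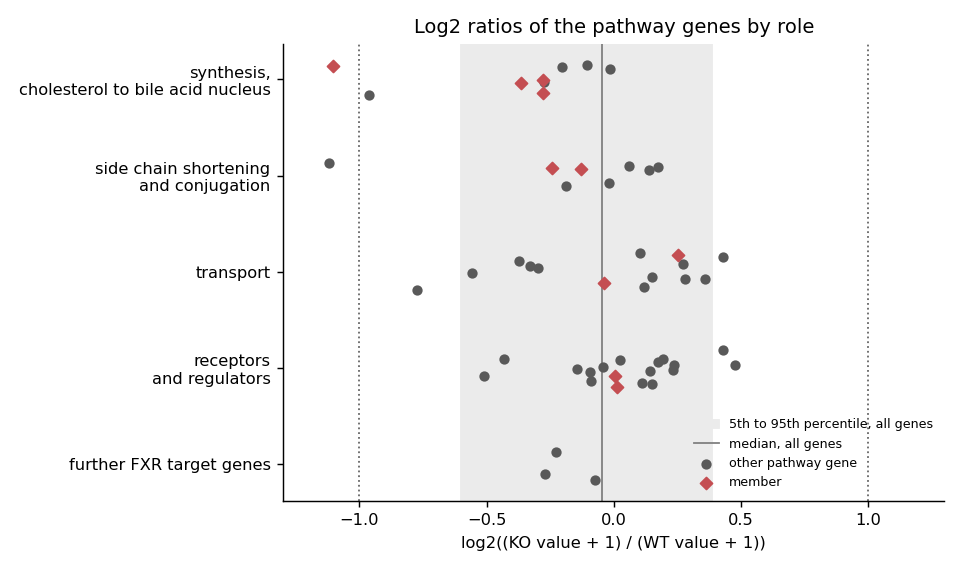
Log2 ratio of KO over WT, from 1 pooled value per genotype, for the expressed genes of the 5 lists; diamonds are the 10 genes, circles the other pathway genes, the grey band runs from the 5th to the 95th percentile of all expressed genes (−0.60 to 0.39) and dotted lines mark 2-fold. All 9 points of the synthesis row lie below 0 (*Cyp39a1* and *Akr1d1* not relative to genes of like GC content), while transport and receptors lie on both sides.

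The lowest ratios belonged to AT-rich transcripts. Of the transcript of *Cyp7a1* 39.7% was G or C, and the 500 genes nearest to it in GC content had a median log2 ratio of −0.43. Relative to them the log2 ratio of *Cyp7a1* was −0.67, short of 2-fold. The same median was −0.52 for the neighbours of *Sult2a8* (GC 36.7%), relative to which it too was short of 2-fold (−0.60), −0.50 for those of *Slco1b2* (38.6%) and −0.25 for those of *Cyp2c70* (42.5%). For *Cyp7b1* (GC 42.5%) it was −0.24, so that *Cyp7b1* differed from its neighbours by −0.04. The GC-richer *Cyp8b1* (54.8%) and *Cyp27a1* (53.5%) differed from theirs by −0.34 and −0.30, close to their own log2 ratios, and *Abcb11* (45.9%) by 0.28. All these neighbours were expressed genes of any level, and the shift with GC content was smaller in stronger genes. At 40% to 44% GC, where *Cyp7b1* and *Cyp2c70* lie, the median log2 ratio was −0.28 over all expressed genes. Among the 260 of them averaging 300 or more it was −0.14, so the differences of these stronger genes depend on the neighbours chosen.

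**Figure D3:**
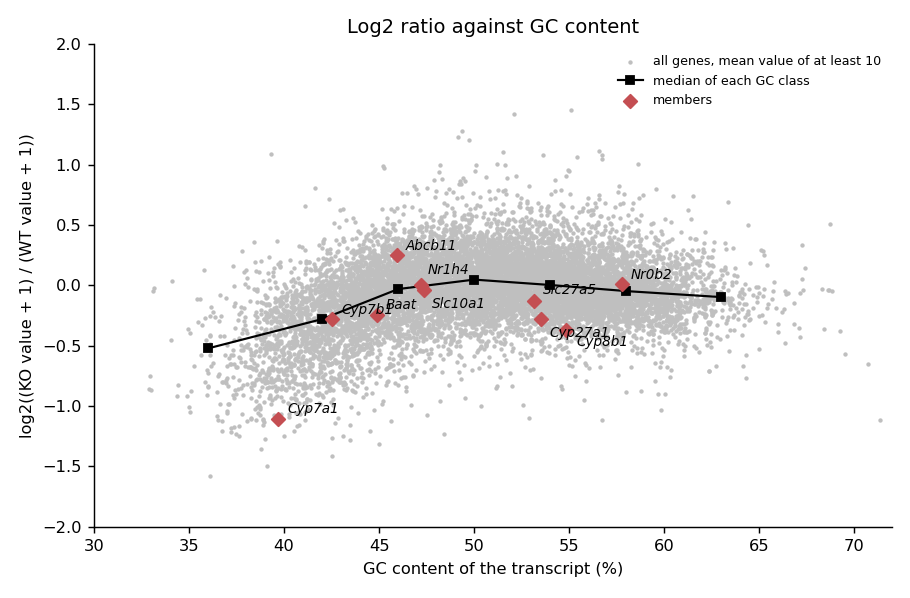
Log2 ratio of KO over WT against the GC content of the transcript in percent, with a grey point for each expressed gene, black squares for the median of each GC class and diamonds for the 10 genes; genes beyond 4-fold lie outside the vertical axis. The median is −0.52 at a GC content below 40%, where *Cyp7a1* (39.7%) lies, and *Cyp8b1* and *Cyp27a1* lie in classes whose median is near 0.

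Among all expressed genes, the 436 with a GC content below 40% had a median log2 ratio of −0.52, and 8.26% of them were lower past 2-fold. Of the 55 among them that averaged 300 or more, a class that holds *Cyp7a1*, the median was −0.36 and 9.09% were lower past 2-fold. Across 11051 genes, which are not independent replicates, Pearson's r of log2 ratio and GC content was 0.278. In weakly expressed genes, whose reads per library could be worked out from the deposited values, 1 library of each genotype stood apart. For 833 genes with a GC content below 44%, the WT library with a size factor of 1.22 had a median deviation from the gene mean of 1.15 on the log2 scale, and the KO library with a size factor of 1.31 one of 0.43. The other 4 libraries lay between −0.54 and −0.08. The values of the 10 genes could not be recalculated without these 2 libraries, and the part of GC content in the ratio of *Cyp7a1* was not tested.

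**Figure D4:**
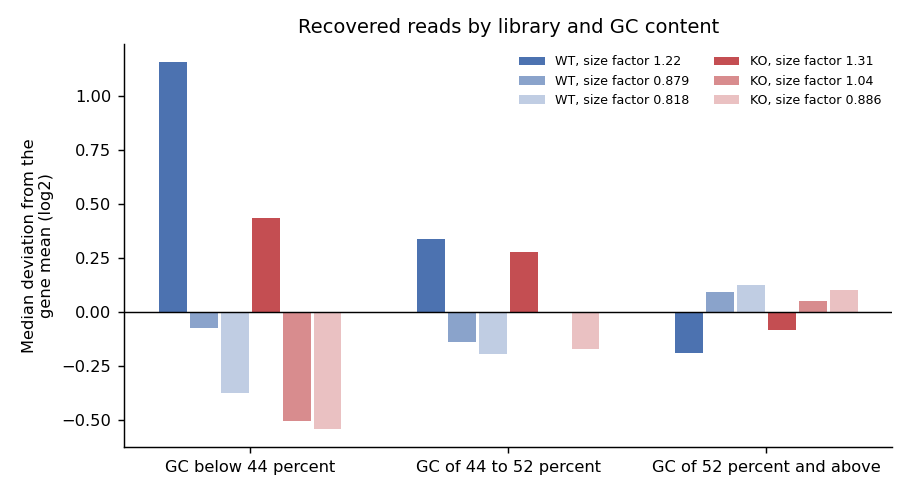
Median deviation of each library from the gene mean (log2 normalized reads) for 3 classes of GC content, with 1 bar per library in blue for WT and red for KO, named by size factor. In the AT-rich class the WT library with a size factor of 1.22 reaches 1.15 and the KO library with a size factor of 1.31 reaches 0.43, while the other 4 lie below 0.

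Reads per library were recovered for 6 pathway genes with at least 10 normalized reads over the 6 libraries. None of the 10 genes is among them, since the lowest sum of the 10 was 3517 and the recovery reached 600. The libraries carry a genotype but no pool number and are given below in the order of decreasing size factor.

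*Slc10a2*, the bile acid carrier of ileum and bile ducts, had 26.9, 31.8 and 20.8 normalized reads in WT and 28.2, 19.3 and 10.2 in KO. The highest KO library exceeded 2 of the 3 WT libraries, and the genotypes overlapped (two-sided exact permutation test, p = 0.3). *Abcc4*, a basolateral export pump, had 28.6, 20.5 and 18.3 in WT and 24.4, 23.2 and 28.2 in KO (exact permutation p = 0.5). The WT libraries of *Abcc4* lay on both sides of the KO libraries.

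*Cyp46a1*, the cholesterol 24-hydroxylase, had 23.7, 27.3 and 46.5 in WT and 17.5, 33.8 and 37.3 in KO (exact permutation p = 0.8). *Atp8b1*, the flippase of the canalicular membrane, had 171, 42.1 and 29.3 in WT and 110, 50.2 and 20.3 in KO (exact permutation p = 0.8). In *Atp8b1* the library with the largest size factor was far above the others in both genotypes. At lower counts, *Slc51b*, a subunit of the basolateral bile acid exporter, had 5.72, 3.41 and 2.45 in WT and 1.52, 2.90 and 1.13 in KO (exact permutation p = 0.2). *Vldlr*, a lipoprotein receptor, had 13.1, 3.41 and 9.78 in WT and 6.86, 4.83 and 5.65 in KO (exact permutation p = 0.5). The genotypes overlapped in all 6 genes, and 3 libraries against 3 cannot give a p below 0.1. The share of all recovered genes with such an overlap was not counted, so nothing particular to these 6 is shown.

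With limma on log2(normalized reads + 1) over 3307 genes, 0 genes had an adjusted p under 0.05 (0%) and 54 an unadjusted p under 0.05 (1.63%). With 1 library left out the adjusted count was 0 each time, but the unadjusted count moved to 169, 21 and 23 without the KO library of the largest, middle and smallest size factor, and to 137, 55 and 140 without those of WT. The 3 pathway genes among them had log2 differences of −0.53 (SE 0.48, *Slc10a2*), 0.18 (SE 0.42, *Abcc4*) and −0.14 (SE 0.48, *Cyp46a1*), each with an adjusted p of 0.999 in limma. *Slc51a* had 1 read in all 6 libraries together, *Gpbar1* had 1, *Ch25h* had 2 and *Vdr* had 4. In 1895 recovered genes with a sum of at least 200, the median SD between libraries of a genotype was 0.51 on the log2 scale, and how far the 10 stronger genes spread was not measured.

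**Figure D5:**
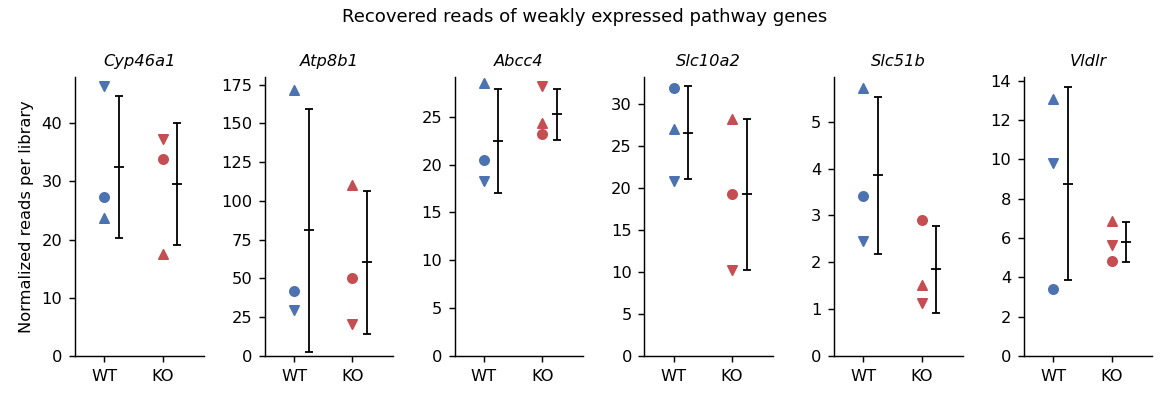
Normalized reads per library for 6 weakly expressed pathway genes, with blue symbols for WT and red for KO (triangle up, circle and triangle down in the order of decreasing size factor) and bars for the mean ± SD of 3 libraries. In each gene the red and the blue symbols overlap, and in *Atp8b1* the upward triangles, 171 and 110, stand far above the others.

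Markers of other cells did not move in one direction. The hepatocyte markers, whose summed value was 2096200 in WT and 2005650 in KO, were lower in KO in 6 of 7 (median log2 ratio −0.20). The exception was *Alb*, with a value of 1329546 in WT against 1332576 in KO (log2 ratio 0.003). The red cell markers were higher in 5 of 5 (median 0.56), with a summed value of 118783 in WT against 180301 in KO. Of 5 Kupffer cell markers 4 were higher (median 0.46, summed value 1986 in WT and 2335 in KO). The cholangiocyte markers, from cells that use *Slc10a2* and *Slc51b*, summed to 278 and 306, and the 5 of 6 that were expressed had a median of −0.02. The endothelial and stellate lists had medians of −0.12 and −0.14. No marker was listed at 0, and the part of cell makeup in the ratios of the 10 genes was not tested.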

How the data were processed

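Liver RNA of 3 WT and 3 KO pools was sequenced by a service that filtered and mapped the reads. The submitters' processing notes name mm10 and the tools HISAT2, StringTie, Cufflinks, GATK, Bowtie2 and RSEM, with no roles or versions, and the deposited comparison was made with DESeq2. The labels and the methods name different RNA extraction kits. The authors deposited, per gene, 1 expression signal per genotype, which is reads divided by size factors, combined over 3 libraries. The ratio of both signals is the shrunken ratio of DESeq2, and in 444 recovered genes with a log2 ratio of the reads beyond 0.5 it was a median of 0.772 of the ratio of the reads. The authors also deposited read counts per library and percent values for mapping and ribosomal RNA. The authors' own log2 ratio, p-values and direction of each gene were not used, nor were the splicing events.

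The log2 ratio was calculated with a pseudocount of 1, and the genes averaging 10 or more over both genotypes (expressed genes) formed the background. The 10 genes and all lists were chosen with earlier results of these data known. Besides the 10 genes, the genes named are those past 2-fold, the 3 highest and 3 lowest log2 ratios of the pathway lists, and list genes with recovered reads summing to at least 10. The remaining genes of a list given whole and genes of 1 to 4 reads were added after their values were seen. The same holds for *Nr1d1*, *Ppargc1a*, *Abcc2*, *Abcb4*, *Abcg5* and the marker *Alb*. Reads per library were recovered by enumerating whole reads that give a gene's mean value, for 8063 of 8081 genes with a sum up to 400 and 480 of 979 genes from there to 600. The recovery, for sums up to 400, and the limma fit were also run on simulated data, in which no library deviated with GC content. On recovered genes with a sum of 60 to 400, limma 3.58.1 (R 4.3.3) compared the genotypes with Benjamini-Hochberg adjustment. Single genes were compared with two-sided exact permutation tests in Python 3.11.15 with NumPy 2.4.6. Each pool holds several mice, so p-values measure the spread between pools. Gene positions came from RefSeq on GRCm38.p6 and GC content from transcripts of GENCODE M21.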

Additional observations from a re-analysis of the deposited data

How the results depend on the processing

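With pseudocounts of 0.1 and 10, without a pseudocount where tried, and after centring on the median of all genes, the counts past 2-fold were the same and the median log2 ratio of the 10 genes stayed between −0.19 and −0.14. Centring on the 500 genes nearest in GC content, an alternative chosen after seeing the data, gave a median of −0.11 for the 10 genes, and 0 of the 10 genes and 0 of the 42 other pathway genes past 2-fold in place of 1 and 1. These 500 genes were not matched on expression level. With a limit of 1.5-fold, 3 other pathway genes were past it. In the recovered reads, 0 of 3 pathway genes had an adjusted p under 0.05 in limma with a pseudocount of 0.5, with a sum from 20 (0 of 4), with a term for the library of the largest size factor and with each library left out in turn (0 to 0), and 0 had an unadjusted p under 0.05. Over all 3307 genes that term gave 2 calls, and 251 unadjusted p under 0.05. No paired analysis was possible because the stronger genes have 1 pooled value per genotype and the recovered libraries carry no pool number. Depth limits the genes of a few reads, and the missing spread between pools limits all statements on the 10 genes.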
